A study of Homo sapiens with 2 samples.

Results

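OTX2 binding was mapped along human chromosome 8 in D283 cells, an established medulloblastoma line grown as tumorspheres. The regions described are all OTX2 peaks on chromosome 8, 7633 of the 137412 peaks in the deposited list (5.55%). The rule takes every peak on the chromosome and uses no measured value, but the chromosome itself was picked with earlier results of these data known. With the boundary between the arms set at 45 Mb in GRCh38, 1947 peaks (25.5%) had their summit on the short arm and 5686 (74.5%) on the long arm. The comparison set was the 122013 peaks on the other autosomes, leaving out chromosome 7. The data consist of 1 library of chromatin pulled down with an antibody against OTX2 and 1 input library of sheared chromatin with no antibody, both from OTX2-expressing tumorspheres. The study calls the mapped cells OTX2-high, its term for the scramble control of its knockdown experiment. For the mapping itself it names no treatment. D283 is a single cell line, and no normal tissue, second line or OTX2-depleted sample was mapped. With 1 library of each kind there is no replicate error, no test was possible, and every interval below is a 95% interval that covers counting error only.

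OTX2 is a homeodomain transcription factor of the developing brain and a driver of Group 3 and Group 4 medulloblastoma. The long arm of chromosome 8 carries MYC, a transcription factor that promotes growth and is amplified in part of Group 3 tumours. In chromatin immunoprecipitation, an input library shows how much DNA from each place entered the experiment, which depends on the number of copies the cells carry, on shearing and on how well the reads map. The peak caller weighs the fragments pulled down at a place against the input there, so that the same pile of fragments gives a lower fold enrichment where the input is high.

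The ChIP library held 61259377 fragments after removal of duplicates and the input library 22521186, a ratio of 2.72. Each fragment added 0.735 to the deposited pileup, and heights are given below as whole ChIP fragments at the summit. The deposited fold enrichment is the pileup divided by the local input, each with 1 added, and from these the local input at each peak was worked back in the same scaled units. The caller takes the largest of the genome-wide background and the input in windows around the peak, so the local input has a floor, 3.99, that marks a peak whose surroundings held no more input than the genome-wide background. Windows of 1000 and 10000 bp were listed for the regional input. A narrow window can hold few input fragments, and 58.5% of local inputs on chromosome 8 lay within 0.02 of a whole number. The floor, 3.986, is itself that close to one. The share therefore includes the 1160 chromosome 8 peaks at the floor, whose value is the genome-wide background.

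Chromosome 8 stood first of 21 autosomes, chromosome 7 left out, in local input and in peak height, but not in peak density. The median local input at its peaks was 8.03 (8.0 to 8.40), against 5.00 on the other autosomes, a ratio of 1.61. Chromosome 17 came next with a median of 6.67, followed by chromosomes 1 and 13 at 6.0. The median height was 69 fragments on chromosome 8 and 52 on the other autosomes, a ratio of 1.33. The median fold enrichment, which has the local input in its denominator, was 5.59 against 6.10 and was the lowest of the 21 autosomes.

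The share of peaks at the floor of the local input was 15.2% on chromosome 8 (1160 peaks), beside a background of 24.0% on the other autosomes. High local input, meaning 3 or more times the floor (11.96 or above), was found at 27.5% of the peaks (2097), beside a background of 3.00%. The highest share on any of the other autosomes was 9.12%, on chromosome 17. Peaks enriched at least 5-fold made up 56.5% of chromosome 8 peaks, beside a background of 62.8%. High input thus stood beside more fragments and less fold at the median peak.

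Peak density was 52.7 per Mb on chromosome 8 (51.5 to 53.9) and 48.9 on the other autosomes, a ratio of 1.08 (1.05 to 1.10), and 6 autosomes had a higher density. Counting only peaks enriched at least 5-fold turned the direction, to a ratio of 0.968 (0.939 to 0.999). At 10-fold the ratio was 0.958 (0.913 to 1.01), an interval that includes equal densities. The plot of density against local input by autosome shows chromosome 8 apart from the others on the input axis and among them on the density axis.

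**Figure D1:**
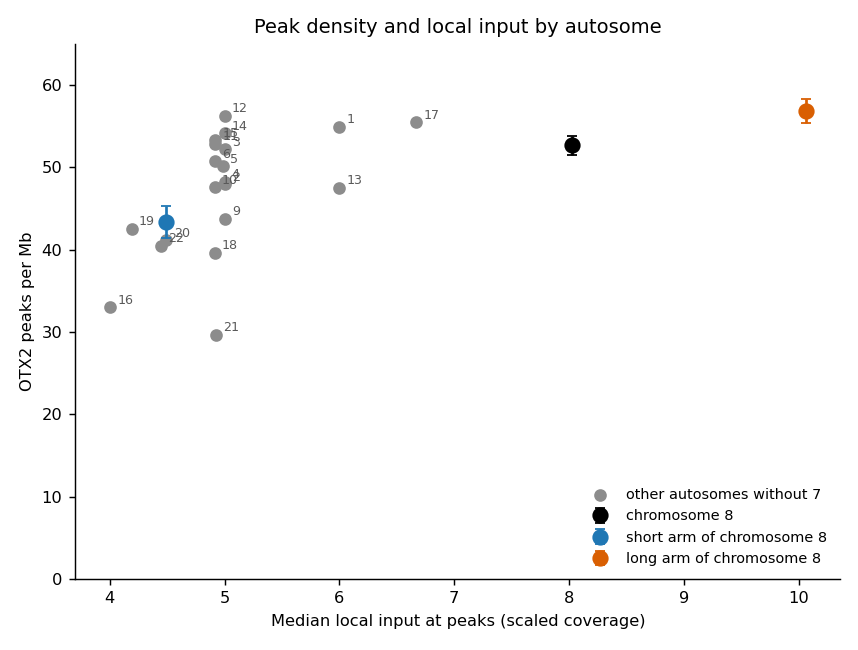
OTX2 peaks per Mb (vertical axis) against the median local input at peaks in scaled coverage (horizontal axis), 1 grey point for each numbered autosome other than 7 and 8, and coloured points for chromosome 8 and its arms. Bars are 95% exact Poisson intervals of the density and cover counting error only. Chromosome 8 lies at an input of 8.03 and its long arm at 10.1, while the short arm, at 4.49, lies to the left of most other autosomes.

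The arms of chromosome 8 differed in local input, height and fold enrichment. On the short arm the median local input was 4.49 (4.45 to 4.68) and on the long arm 10.1 (10.0 to 10.3), a ratio of 2.24. The median height was 50 fragments on the short arm (48 to 52) and 75 on the long arm (73 to 77), a ratio of 1.5. The median fold enrichment was 6.25 on the short arm (6.06 to 6.52) and 5.36 on the long arm (5.23 to 5.49). The floor of the local input held 30.3% of short arm peaks (589) and 10.0% of long arm peaks (571). High local input was found at 2.47% of short arm peaks (48) and 36.0% of long arm peaks (2049).

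Density was 43.4 peaks per Mb on the short arm and 56.8 on the long arm, a ratio of 1.31 (1.24 to 1.38). The ratio was 1.10 (1.03 to 1.17) for peaks enriched at least 5-fold and 1.06 (0.961 to 1.18) for those enriched at least 10-fold. Set against the other autosomes, the short arm had a density ratio of 0.887 (0.847 to 0.927) and the long arm one of 1.16 (1.13 to 1.19). For peaks of at least 5-fold the long arm and the other autosomes had like densities, with a ratio of 0.996 (0.960 to 1.03).

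To set this contrast between arms beside those elsewhere, 16 autosomes were split at their longest stretch without a peak, which on chromosome 8 ran over 2.15 Mb, from 44802508 to 46956864. The 2.24-fold contrast in local input on chromosome 8 was the largest of the 16, ahead of 1.76 on chromosome 17 and 1.46 on chromosome 1. The contrast in height, 1.5, was also the largest, ahead of 1.27 on chromosome 17 and 1.26 on chromosome 1. The contrast in density, 1.33 with this split, came after 2.52 on chromosome 17, 1.66 on chromosome 5 and 1.43 on chromosome 16.

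In 5 Mb bins the high input took up one block of the long arm and none of the short arm. Across the 9 bins of the short arm the median local input ranged from 4.00 to 4.82 and the median height from 45.5 to 56 fragments. Bins 10 to 14, from 45 to 70 Mb, were at the same level, with inputs of 4.40 to 4.91. The input was 8.31 in bin 15 (70 to 75 Mb) and 11.8 in bin 16. From bin 17 to bin 23 it lay between 12.2 and 13.2, with the highest median, 13.15, in bin 20 (95 to 100 Mb). Bins 24, 25 and 26 had inputs of 9.66, 10.0 and 9.68. In bins 27 to 29, from 130 to 145 Mb, it was 5.00, 4.19 and 4.00.

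A median local input at or above 2 times the floor, 7.97, was thus found in 12 of 29 bins of chromosome 8, all between 70 and 130 Mb, beside a background of 1.01% of bins (5 of 493) on the other autosomes. Of those 5 bins, 3 were on chromosome 1 at about 8.0 and 1 on chromosome 13 at 8.28. The remaining one, on chromosome 21 from 5 to 10 Mb, held 56 peaks with a median local input of 23.5 and a median height of 161.5 fragments, and it was the only bin of the other autosomes above the highest bin of chromosome 8. Median heights in the 12 high bins ran from 67 to 98 fragments, all above the 95th percentile of the bins of the other autosomes, 63.0. Their median fold enrichments ran from 4.41 to 5.55.

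**Figure D2:**
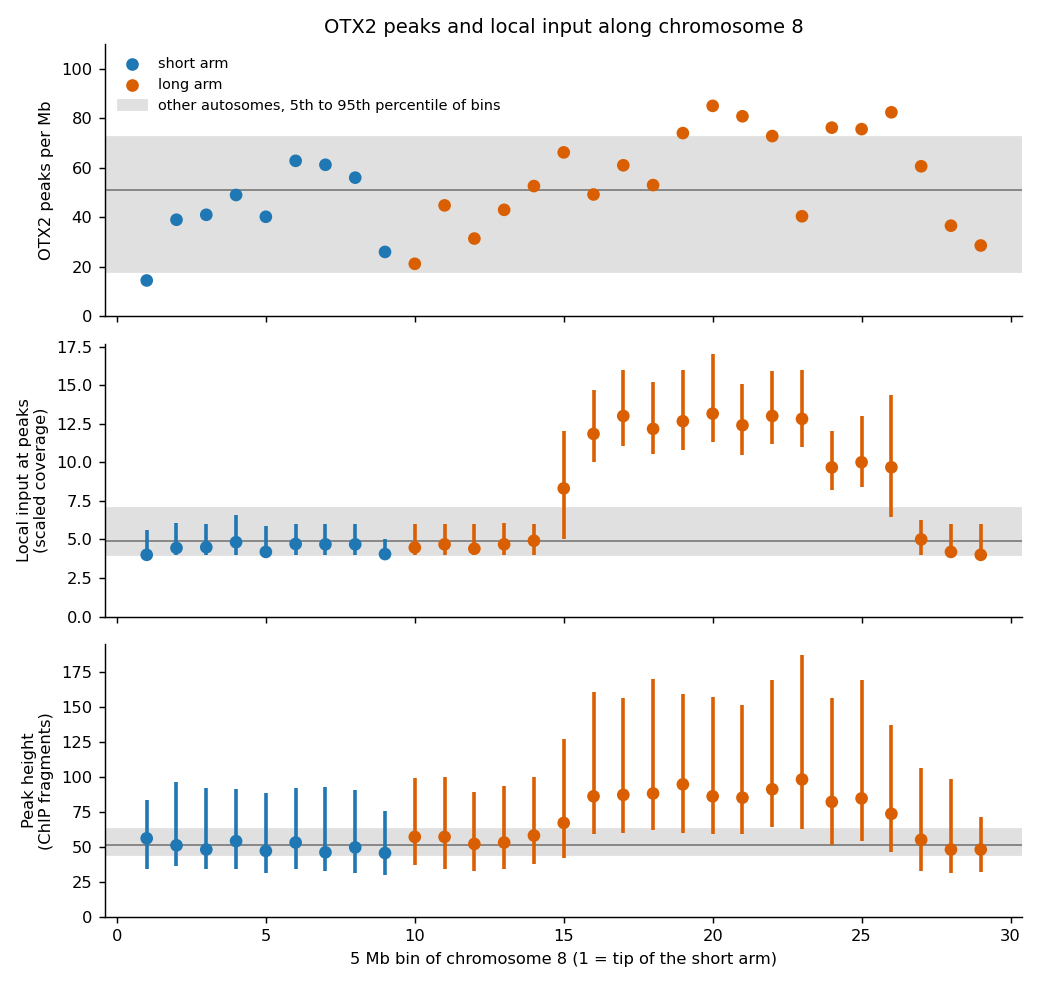
OTX2 peaks per Mb (top), local input at peaks in scaled coverage (middle) and peak height in ChIP fragments (bottom) in 29 consecutive 5 Mb bins of chromosome 8, with short arm bins in blue and long arm bins in orange. Points are densities or medians, vertical lines run from the 25th to the 75th percentile of peaks, and the grey line and band are the median and the 5th to 95th percentile of 493 bins of the other autosomes. Input and height step up at bin 15 and back down after bin 26, while density lies above the band in 7 of the 12 bins between.

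Density varied from bin to bin on both arms. Over the 9 short arm bins it was 43.3 ± 16 peaks per Mb (SD over bins), over the 12 high bins 68.05 ± 14.3 and over the other 8 long arm bins 39.9 ± 13.0. The densest bin of the chromosome was bin 20, with 85.0 peaks per Mb. Its strongest peak by fold enrichment (23.5) lay 70.7 kb downstream of the start of CFAP418, a gene of photoreceptor maintenance. Bin 26 (125 to 130 Mb) followed with 82.4. The protein-coding start site nearest to its strongest peak, 43.7-fold, was that of GSDMC, a gasdermin gene, 569 kb away. Bin 21 (100 to 105 Mb) had 80.8, with its strongest peak, 21.0-fold, 68.3 kb upstream of GRHL2, which encodes an epithelial transcription factor. On the other autosomes 3 bins were denser than bin 20.

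The sparsest bins were not low in fold. Bin 1, at the tip of the short arm, had 14.5 peaks per Mb and a strongest peak of 38.4-fold in an untranslated exon of DLGAP2, which encodes a protein of the postsynaptic density. Bin 10, which takes in most of the peak-free stretch, had 21.2 with that stretch counted in its length. Its strongest peak was 39.1-fold, 44.3 kb upstream of SNAI2, a repressor active in neural crest. Bin 9 had 26.0 and a strongest peak of 36.5-fold 40.5 kb upstream of GOLGA7. Within the high block, bin 23 (110 to 115 Mb) had an input of 12.8 and the greatest median height, 98 fragments, but only 40.4 peaks per Mb. It held 1 protein-coding start site, the fewest of any bin.

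Across the 29 bins, local input went with height (Pearson's r = 0.974, Spearman's coefficient 0.868) and against fold enrichment (r = -0.894, Spearman's -0.795). With density the values were r = 0.657 and, by Spearman's, 0.785. Within the 12 high bins alone the correlation of input with density was -0.215 (Spearman's -0.0559), and within the 17 other bins it was 0.806 (Spearman's 0.853), so the pooled value mixes separate relations. For the number of protein-coding start sites in a bin and its density, r was -0.143 and Spearman's coefficient 0.0827. These are descriptions only, since neighbouring bins share both libraries and all bins share one depth. Local input was also worked back from height and fold enrichment, so its correlations with both are in part built in.

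The block was located more finely by the longest run of consecutive peaks above the floor. On chromosome 8 this run held 3809 peaks, from a summit at 72824173 to one at 127739312. It spanned 54.9 Mb, 37.9% of the length of the chromosome, and held 49.9% of the chromosome's peaks and 67.0% of those of the long arm. The second-longest run on chromosome 8 held 27 peaks. On the other autosomes the longest run held from 20 peaks, on chromosome 16, to 821 peaks over 17.6 Mb, on chromosome 1. Chromosomes 13 and 17 followed with 546 and 431 peaks.

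Inside the run, called the high-input stretch from here on, the median local input was 12.0 and the lowest 4.40, while the 3824 other peaks of chromosome 8 had a median of 4.68. Since the stretch was drawn from the local input, this contrast is a description of how it was drawn. In units of the floor, the median was 3.01 times the floor in the stretch and 1.17 times outside it. The rest of the long arm differed little from the short arm. Its 1877 peaks had a median local input of 4.70, a median height of 53 fragments, a fold enrichment of 6.29 and 30.4% at the floor. Its density was 41.6 per Mb, a ratio to the short arm of 0.959 (0.900 to 1.02).

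The input inside the stretch was described in 3 segments, whose limits were set after the values were seen. The first limit, 115 Mb, was the 5 Mb boundary with the largest fall in median input among bins wholly inside the stretch, and the second, 127 Mb, was the last whole Mb before its end. From the start of the stretch to 115 Mb, 2761 peaks had a median local input of 12.6 (12.4 to 12.9), a median height of 88 fragments and a fold enrichment of 4.77. From 115 to 127 Mb, 950 peaks had a median local input of 10.0 (9.83 to 10.1), a height of 79 fragments and a fold enrichment of 5.34. The 98 peaks from 127 Mb to the end of the stretch had a median local input of 19.0 (16 to 20.5). In 1 Mb steps the medians ran from 10.0 to 14.7 over the 42 steps of the first segment and from 9.0 to 12.0 over the 12 steps of the second, so the first and second segments overlapped between 10.0 and 12.0. The 25 steps before the stretch on the long arm lay between 3.99 and 5.00 and the 17 steps after it between 3.99 and 5.07. Another 42 steps, on the short arm, lay between 3.99 and 7.34. The steps that hold the edges of the stretch are left out of these ranges. The stretch and its segments were drawn from the same local inputs, so the gap between inside and outside describes how they were drawn. Density was 65.5 peaks per Mb in the first segment, 79.2 in the second and 133 in the last, so it did not follow the order of the inputs, 12.6, 10.0 and 19.0.

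The stretch began inside KCNB2, which encodes a voltage-gated potassium channel of neurons. The last peak at the floor, chr8:72821972-72822214, had 21 fragments and a fold enrichment of 3.30 in an intron of the gene. The first peak of the stretch, chr8:72823996-72824333, in the same gene, had 46 fragments and a local input of 7.0. The 29 KCNB2 peaks before this edge had local inputs from 3.99 to 14.0 with a median of 6.0, and 4 of them were at the floor. The 15 peaks after it had local inputs from 4.40 to 33.0 with a median of 17.5, and none was at the floor. The median height was 84 fragments before the edge and 164 after it, and the median fold enrichment 6.16 and 6.55. The inputs on the sides of the edge overlapped, so it marks where floor values stop and not a single breakpoint.

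**Figure D3:**
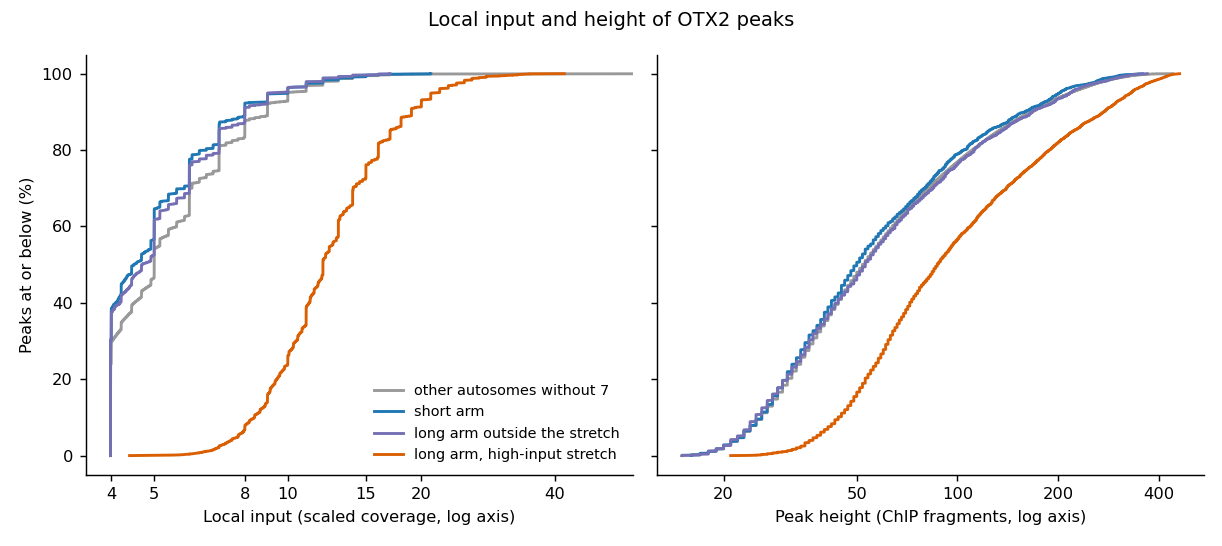
Share of peaks at or below a given local input in scaled coverage (left) and a given height in ChIP fragments (right), on log axes, for the other autosomes, the short arm, the long arm outside the high-input stretch and the stretch itself. The curves of the short arm and of the rest of the long arm run close to that of the other autosomes, and the curve of the stretch lies to the right in both panels; the left axis ends below the highest inputs of the other autosomes.

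The stretch ended at MYC (ENSG00000136997, chr8:127735434-127742951, plus strand). MYC carried 3 peaks in its gene body. The tallest, chr8:127733920-127737477, covered the start site over 3558 bp, with its summit 748 bp downstream in an annotated exon. It had 228 fragments (199 to 260), a fold enrichment of 7.03, a −log10 q of 80.6 and a local input of 23. The next, chr8:127737835-127738244, had 71 fragments, a fold enrichment of 3.80 and a local input of 13.0. The last, chr8:127738613-127740388, had 94 fragments, a fold enrichment of 4.66 and a local input of 14.0, and closed the stretch 3878 bp downstream of the start site. The following peak, chr8:127773109-127773607, was at the floor, 37949 bp downstream of the MYC start site, and had 101 fragments and a fold enrichment of 15.1. The MYC start site peak thus had more than 2 times the fragments of that peak and a lower fold enrichment, 7.03 against 15.1.

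The highest inputs of the region lay upstream of MYC and not at the gene. From 500 to 100 kb upstream of its start site, limits set after the values were seen, 55 peaks had a median local input of 23.4 (20.0 to 25), with a range of 12.2 to 42.0. This was 5.87 times the floor and 5.00 times the median of chromosome 8 outside the stretch. For comparison, the second segment up to 500 kb upstream of MYC held 973 peaks with a median local input of 10.0. In steps of 100 kb toward the gene the median was 14.2 from 600 to 500 kb upstream, 19.9 in the next step, then 23.7, 29.5, 21.8 and, in the last 100 kb, 14.1. In the first 100 kb downstream it was 6.78, with 3 of 12 peaks at the floor, and in the next 4.00. The 55 upstream peaks had a median height of 113 fragments and a median fold enrichment of 3.91.

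**Figure D4:**
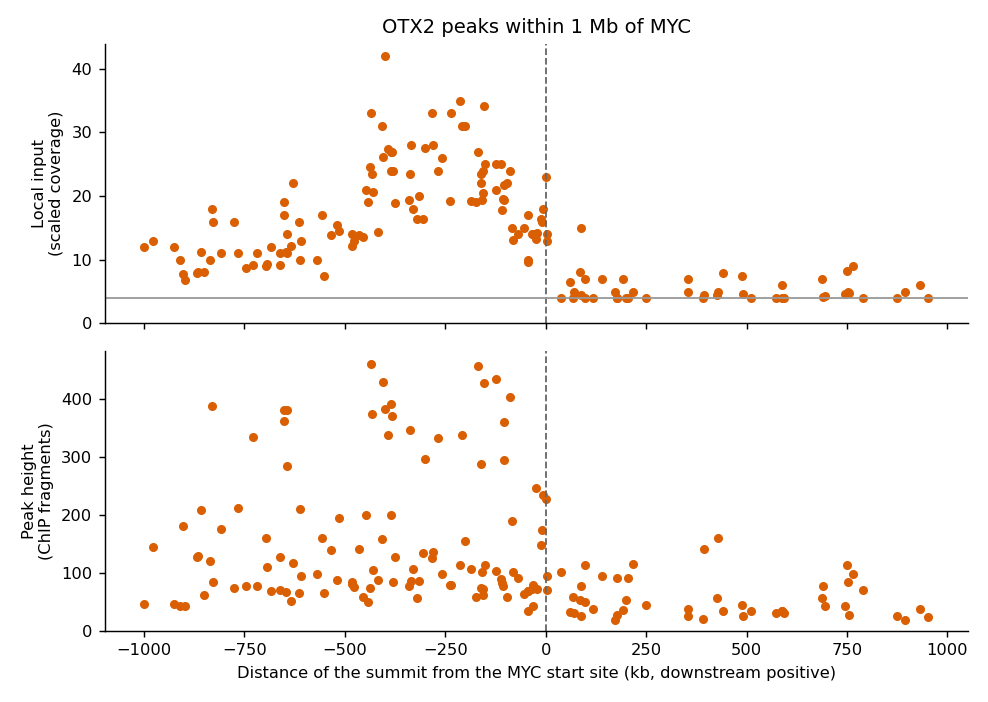
Local input in scaled coverage (top) and height in ChIP fragments (bottom) of each OTX2 peak with its summit within 1 Mb of the MYC start site, by distance in kb with downstream positive. The dashed line marks the start site and the grey line the floor of the local input, 3.99. Inputs above 20 cluster between 500 kb upstream and the gene, and the peaks beyond 100 kb downstream lie between the floor and 9.0.

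How much denser the stretch was depended on the fold enrichment asked of a peak. All peaks together had a density of 69.4 per Mb in the stretch and 42.5 in the rest of chromosome 8, a ratio of 1.63 (1.56 to 1.71). The ratio was 1.44 (1.38 to 1.51) for peaks of at least 3-fold and 1.23 (1.16 to 1.31) for those of at least 5-fold. At 10-fold it was 1.09 (0.993 to 1.20), and the densities, 13.1 and 12.0 per Mb, could not be told apart. At 20-fold the direction turned, with 0.856 peaks per Mb in the stretch (47 peaks) against 3.42 in the rest (308 peaks), a ratio of 0.250 (0.180 to 0.341).

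A threshold on fragments gave the opposite course. Peaks of at least 100 fragments were 3.17 times as dense in the stretch (2.91 to 3.44), and those of at least 200 fragments 4.94 times (4.25 to 5.76). The median height in the stretch was 87 fragments against 51, a ratio of 1.71, and the median length 459 bp against 437 bp. The fewest fragments of any peak at the floor on chromosome 8 were 15, and of any peak with high local input 35. The lowest fold enrichment was 2.41 at the floor and 1.74 among peaks of high input. Where the input was high, weak peaks in terms of fold were therefore still called, and short piles of fragments were not. Local input, median height and the density of all peaks were each higher in the stretch than in the rest of chromosome 8. Across the segments of the stretch, density did not follow the order of the inputs. The part of the input in the number of peaks was not tested.

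**Figure D5:**
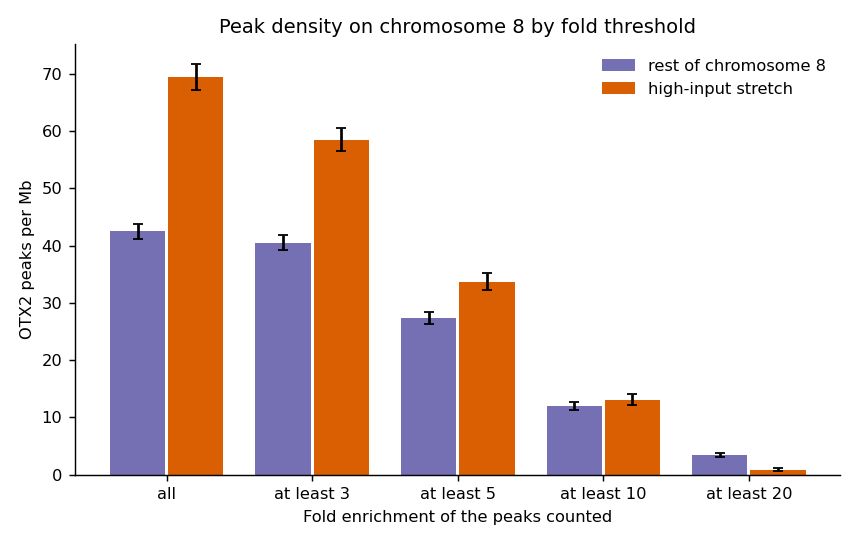
OTX2 peaks per Mb in the high-input stretch (orange) and in the rest of chromosome 8 (purple), counting all peaks or those with at least the given fold enrichment. Error bars are 95% exact Poisson intervals and cover counting error only. The stretch is ahead with all peaks (69.4 against 42.5), level at 10-fold (13.1 against 12.0) and behind at 20-fold (0.856 against 3.42).

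On the long arm the peaks with the highest fold enrichment lay outside the stretch, which does not reach the short arm. On the short arm the highest, chr8:16801623-16802570, had 343 fragments and a fold enrichment of 47.3 and lay 200 kb downstream of the start of FGF20, which encodes a fibroblast growth factor. The next, chr8:9363107-9364892, had 317 fragments and a fold enrichment of 46.9, 192 kb upstream of TNKS, which encodes a telomere-associated poly(ADP-ribose) polymerase. The others were a 45.9-fold peak 711 kb downstream of the start of UNC5D, a netrin receptor gene, a 43.9-fold peak in an intron of RP1L1, a photoreceptor gene, and a 43.7-fold peak 687 kb upstream of CSMD1. All 5 had local inputs of 3.99 to 5.00.

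On the long arm the highest fold enrichment of the chromosome, 48.6 with 329 fragments, was at chr8:144293426-144294153, in an intron of HSF1 and 2240 bp downstream of its start. HSF1 encodes the main transcription factor of the heat shock response. A 46.3-fold peak with 315 fragments lay in an intron of CLVS1, a gene of vesicle traffic in neurons. A 43.9-fold peak lay in an intron of TG, the thyroglobulin gene, with that of SLA as the nearest protein-coding start site. The other 2 were the 43.7-fold peak between MYC and GSDMC and a 42.8-fold peak 106 kb upstream of ADCY8, which encodes a brain adenylyl cyclase. None of these long arm peaks was in the stretch. Fold enrichment has the local input in its denominator, and the stretch was drawn from local input. Within the stretch the highest fold enrichment, named after the values were seen, was 33.6 with 333 fragments, 238 kb downstream of the start of TRIB1, a pseudokinase gene.

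The peaks with the highest local inputs ranged widely in fold. The highest local inputs were all in the stretch, which was drawn from the local input, so their place is no separate result. The highest, 42.0, was at chr8:127335408-127336077 in an intron of POU5F1B, upstream of MYC, with 383 fragments and a fold enrichment of 6.57. The next, 40, was at chr8:107635405-107635843, 137 kb upstream of ANGPT1, with 135 fragments and a fold enrichment of 2.45. The remaining 3 had local inputs of 35.0, with 113 fragments 200 kb downstream of the start of POU5F1B, 199 fragments 272 kb upstream of the start of CIBAR1 and 264 fragments 77.6 kb downstream of the start of PMP2, which encodes a myelin protein. The 5 tallest peaks of the chromosome, also named after their values were seen, were in the stretch too, with 446 to 461 fragments. The tallest, chr8:127298268-127300632, was 21.9 kb upstream of the start of POU5F1B, with a local input of 33.0 and a fold enrichment of 10.0. Height and fold thus picked different peaks of this chromosome as the strongest.

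Of 697 protein-coding genes on chromosome 8, 425 had an OTX2 peak in a window that began 5 kb before the start site and ended 2 kb after it, or 61.0% (57.3 to 64.5), beside a background of 59.5% on the other autosomes. The share was 50.9% on the short arm (143 of 281; 45.1 to 56.7) and 67.8% on the long arm (282 of 416; 63.2 to 72.1). In the stretch it was 80.4% (164 of 204; 74.4 to 85.3), and in the rest of the chromosome 52.9% (261 of 493; 48.5 to 57.3). Counting only peaks of at least 5-fold, the share was 48.0% in the stretch (41.3 to 54.9), 32.5% in the rest (28.5 to 36.7) and 40.5% on the other autosomes. At 10-fold it was 19.6% (14.7 to 25.6), 12.4% (9.75 to 15.6) and 14.3%. At 5-fold the intervals of the stretch and of the rest did not overlap, and at 10-fold they did. The stretch had 3.71 protein-coding start sites per Mb and the rest of the chromosome 5.48.

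Lists of chromosome 8 genes were made from their known roles. Of 12 neuronal and signalling genes on the short arm, 8 had a peak near the start site (66.7%; 39.1 to 86.2), beside 50.9% of all protein-coding genes of the arm, with best fold enrichments of 3.02 to 8.76. FZD3, a Wnt receptor gene of axon guidance, had 8.76 with 82 fragments, 3882 bp upstream. NEFL, a neurofilament gene, had 7.25, and CSMD1, a large synaptic membrane protein gene, 6.98. STMN4, DPYSL2 and GFRA2 had no peak near the start. Summits in the gene body numbered 72 in NRG1, which encodes a neuregulin growth factor, over 1216 kb, and 39 in UNC5D, over 561 kb. CSMD1, the longest gene of the list at 2060 kb, had only 2. The short arm as a whole had 43.4 peaks per Mb.

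On the long arm 8 of 16 neuronal and signalling genes had a peak (50%; 28.0 to 72), beside 67.8% of all genes of the arm. CSMD3, inside the stretch, had a best fold enrichment of 11.7 with 160 fragments at a local input of 9.13. KCNB2, at whose start the input was still 8.0, had 8.85 with 107 fragments. ARC, an immediate early gene of synapses beyond the stretch, had a fold enrichment close to KCNB2, 8.16, from only 54 fragments, at a local input of 3.99. STMN2, NCALD and KCNQ3 had no peak near the start, although STMN2 and NCALD lie in the stretch. Within their bodies these genes had 5, 31 and 23 summits.

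Of 10 genes for transcription factors and chromatin proteins on the short arm, 7 had a peak (70%; 39.7 to 89.2), beside 50.9% of all genes of the arm. The best fold enrichments were 11.1 at HMBOX1, a telomere-binding homeobox gene, 9.48 at NSD3, a histone methyltransferase gene, and 6.51 at ZNF703. GATA4, SOX7 and EBF2 had none. On the long arm 16 of 23 had a peak (69.6%; 49.1 to 84.4), beside 67.8% of all genes of the arm, and HSF1 had the highest fold. RUNX1T1, a corepressor gene in the stretch, had 13.7 with 296 fragments at a local input of 15. NCOA2, a nuclear receptor coactivator gene before the stretch, had 13.0 with only 87 fragments at an input of 3.99, so that these like folds came from unlike numbers of fragments. TOX, PRDM14 and TRPS1 had none, and TRPS1 lies in the stretch. MYC, at 7.03, was near the median best fold of the 16 genes, 6.46, and below only HSF1 and RUNX1T1 in fragments.

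Of 10 growth and cancer-associated genes on the short arm, 7 had a peak (70%; 39.7 to 89.2), again beside 50.9%. BNIP3L, a mitophagy receptor gene, had a best fold enrichment of 15.1 with 142 fragments. DUSP4, a MAP kinase phosphatase gene, had 6.54, and TNFRSF10B, a death receptor gene, 5.50. DLC1, TUSC3 and BMP1 had none near the start, although 36 summits lay in DLC1 and 15 in TUSC3. On the long arm 18 of 20 had a peak (90%; 69.9 to 97.2), beside 67.8% of all genes of the arm and 80.4% of those in the stretch. For all 6 lists but this one the interval included the share of the arm, and for this one it included the share of the stretch, so the counts are no result about the lists. RB1CC1, an autophagy gene before the stretch, had 29.6 with 219 fragments at a local input of 4.47. DEPTOR, an mTOR inhibitor gene, and RAD21, a cohesin subunit gene, both in the stretch, had 16.1 with 223 and 227 fragments at local inputs of 9.22 and 9.41. At like heights the gene outside the stretch had the higher fold, which follows from the lower local input in its denominator. NDRG1 and CCN4, both beyond the stretch, had no peak near the start.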

How the data were processed

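Chromatin from D283 tumorspheres gave 1 input library and 1 library pulled down with the OTX2 antibody. The authors aligned both to GRCh38 (bowtie2 2.2.4), peak calling was done with MACS2 2.1.0.20140616, and the study states that blacklisted regions were masked. Per the file headers, 1 fragment was kept per position, the q-value cutoff was 0.05, the effective genome size was 2700000000 and the larger library was scaled to the smaller. The deposited pileup is a signal, the scaled fragment coverage at the summit. The fold enrichment deposited by the authors is the ratio of pileup to local input after 1 is added to both. The deposited −log10 values are those of each peak's p-value, not used here, and q-value.

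Local input was computed as the pileup plus 1, divided by the fold enrichment, minus 1. It is derived from these columns and was not measured for places without a peak. Density is the number of summits divided by the length from the first to the last peak of a chromosome, or by the length of a bin or segment within it. The last partial bin (9 peaks) was left out. Densities have exact Poisson intervals, ratios of densities exact conditional intervals, medians order-statistic intervals and shares Wilson intervals, all at 95%. Medians, shares and densities are over peaks of a single list, which are not replicates.

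Gene starts are the 5′ ends of GENCODE release 44 gene records, whose recorded GRCh38 positions were used without conversion, and exons are those of protein-coding transcripts. An overlap of 1 bp or more between a peak and the window of a gene was counted. The steps were tested on simulated peaks over the 697 genes. Chromosome 8, the gene lists (91 symbols, all matched) and the arm boundary were chosen with earlier results of these data known. Named were the 3 highest folds near the start and up to 3 genes without a peak per list, the 5 highest folds per arm, the 5 highest local inputs, the strongest peak of the 3 densest and 3 sparsest bins, and MYC. No DNA sequence is printed. Python 3.11.15, numpy 2.4.6, pandas 2.3.3, scipy 1.17.1 and matplotlib 3.10.9 were used.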

Additional observations from a re-analysis of the deposited data

How the results depend on the processing

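Of 61 recomputed values over 9 results, 31 moved by less than their counting interval, 22 moved further and 8 turned direction. A turn was counted only where the interval of the main value left out equality. The gene share ratio of chromosome 8 to the other autosomes, 1.02 (0.951 to 1.10), did not meet this. It fell below 1 in 3 alternatives, which are among the 22. Without the high-input stretch, an alternative chosen after seeing the data, the density ratio of chromosome 8 to the other autosomes became 0.869 and of long to short arm 0.959, the input ratios became 0.936 and 1.05, and the height, fold and gene share ratios 1.06, 1.01 and 0.889. The difference in peaks at the floor, -20.2 percentage points with all peaks, became 0.169. Without peaks of high local input the density ratios were 0.805 and 0.860, the input ratios 1.20 and 1.74, the height ratio 1.22 and the gene share ratio 0.872. With lengths unchanged, that filter took out 27.5% of chromosome 8 peaks but 3.00% of those on the other autosomes. On the long arm it took out 36.0% and on the short arm 2.47%. The turn of both density ratios, counted among the 8, therefore follows from the filter. For peaks enriched at least 5-fold the density ratios were 0.968 and 1.10, the input ratio to other autosomes 1.40, the height and fold ratios 1.73 and 0.995, the floor difference -17.7 points and the gene share ratio 0.914. With a −log10 q of at least 5, density and input against the other autosomes had ratios of 1.10 and 1.68. The density ratio to other autosomes was 1.11 away from start sites, 1.05 without peak-free stretches and 1.11 with chromosome 7 included. Means in place of medians gave input ratios of 1.59 and 1.96, and leaving out whole-number inputs, also chosen after seeing the data, gave 1.77 and 2.08. The floor is close to a whole number, so that last alternative also dropped every peak at the floor. These made up 30.3% of short arm peaks, 10.0% of long arm peaks and 24.0% of those on the other autosomes. Its ratios therefore cannot show the effect of coarse input counts alone. The highest bin kept an input near 13.15 in bins of 10 Mb (13.0) and 2.5 Mb (13.5). These causes were not tested beyond the alternatives' own construction. No paired analysis was possible because there is 1 library of each kind, and no library could be left out. The input depth limits the local input at single peaks.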
